A study of Mus musculus with 18 samples.

Results

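A set of protein-coding neighbours of *Apoe* on chromosome 7 were described in the liver of wild-type (WT) and *Apoe* knockout (KO) mice. The 10 genes, *Igsf23*, *Sae1*, *Rnf225*, *Dmpk*, *Ehd2*, *C5ar2*, *Tomm40*, *Bcam*, *Ercc1* and *Clasrp*, are 10 of the 15052 genes in the deposited table and 10 of the 164 listed genes within 7 Mb of *Apoe*. They lie on chromosome 7 and were chosen by their measured values, namely by how EtOH-fed *Apoe* KO livers compared with EtOH-fed WT livers. That contrast, and the interaction of diet and genotype that contains it, are therefore given for the 10 genes as values with their errors and without a test. The comparisons of diets share the EtOH-fed mice with that choice, so for the 10 genes they too are given as differences with a 95% interval and no p. Counts of the 10 genes past the threshold between diets are given as description only. The Cyp2 and Sult2a enzyme families of the same region were left out by the choice, although *Dmpk* is itself a protein kinase.

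Bulk polyA RNA-seq of liver covered 18 mice of the chronic-plus-binge ethanol model. The pair-fed groups held 4 WT and 5 *Apoe* KO mice, and the EtOH-fed groups held 5 WT and 4 *Apoe* KO mice, the latter numbered 1, 2, 4 and 5. WT mice were C57BL/6J, and *Apoe* KO mice carried a constitutive knockout in every tissue. All mice were 10 to 12 weeks old, took a Lieber-DeCarli liquid diet for 5 days of acclimation, and were killed 9 h after a gavage on day 11. EtOH-fed mice had received 5% (v/v) ethanol in that diet for 10 days and a gavage of 5 g/kg ethanol, and pair-fed mice an isocaloric control diet and 9 g/kg maltose dextrin. Both strains were bought as separate lines and nothing in the labels makes them littermates.

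A knockout made in embryonic stem cells of one mouse strain and then crossed to another keeps a stretch of donor DNA around the targeted gene. Genes in that stretch can differ between knockout and WT mice through donor alleles, whatever the targeted gene does. A difference of that kind need not depend on diet, whereas one that belongs only to a response to ethanol is absent from pair-fed mice. Donor alleles could also alter such a response, so the diets in which a difference appeared do not name its cause. The strain of the DNA around *Apoe* was not genotyped here, so that loss of *Apoe* and flanking DNA of the KO line cannot be told apart.

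The 10 genes lie on both sides of *Apoe*, which is at chr7:19696109-19699188 in GRCm38. Distances are between gene midpoints, negative towards lower coordinates. *Rnf225*, for a RING finger protein, is the farthest at −6.77 Mb (chr7:12927416-12931072). *Ehd2* follows at −3.74 Mb (chr7:15946958-15967567), *C5ar2* at −3.46 Mb (chr7:16234585-16244154) and *Sae1* at −3.34 Mb (chr7:16320234-16387806). *Dmpk* lies at −0.609 Mb (chr7:19083849-19093821), *Ercc1* at −0.347 Mb (chr7:19344778-19356524) and *Clasrp* at −0.105 Mb (chr7:19581035-19604486). *Tomm40* is the next listed gene on the other side of *Apoe*, at 10.7 kb (chr7:19701313-19715438), then *Bcam* at 65.9 kb (chr7:19756131-19771016) and *Igsf23* at 0.246 Mb (chr7:19937305-19950756).

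The promoters of 4 of the genes are shown, since the expression of *Igsf23*, *Rnf225* and *C5ar2* parted the genotypes under both diets, whereas *Tomm40*, the nearest of the 10 genes to *Apoe*, did not part them under either. Each is the 250 bases before the annotated start, 5′ to 3′ on the gene's strand, from RefSeq (GRCm38.p6). This is the C57BL/6J reference, and the sequence of the KO line was not read. Capitals mark CCAAT boxes (CCAAT, or ATTGG on the other strand) and GC boxes (GGGCGG, or CCGCCC on the other strand).
Igsf23: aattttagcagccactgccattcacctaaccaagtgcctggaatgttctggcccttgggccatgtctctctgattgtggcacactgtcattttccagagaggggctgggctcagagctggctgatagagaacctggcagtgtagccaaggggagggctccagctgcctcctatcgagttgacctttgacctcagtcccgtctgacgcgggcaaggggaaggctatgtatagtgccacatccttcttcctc
Rnf225: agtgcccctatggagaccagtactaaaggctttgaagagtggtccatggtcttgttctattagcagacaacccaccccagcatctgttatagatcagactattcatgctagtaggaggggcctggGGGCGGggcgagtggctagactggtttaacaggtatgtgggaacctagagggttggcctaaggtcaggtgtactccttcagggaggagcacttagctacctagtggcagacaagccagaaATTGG
C5ar2: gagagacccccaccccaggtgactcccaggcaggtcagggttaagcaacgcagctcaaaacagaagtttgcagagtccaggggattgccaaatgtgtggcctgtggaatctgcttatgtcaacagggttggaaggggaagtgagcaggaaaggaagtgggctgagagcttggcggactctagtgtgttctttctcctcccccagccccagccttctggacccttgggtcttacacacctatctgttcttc
Tomm40: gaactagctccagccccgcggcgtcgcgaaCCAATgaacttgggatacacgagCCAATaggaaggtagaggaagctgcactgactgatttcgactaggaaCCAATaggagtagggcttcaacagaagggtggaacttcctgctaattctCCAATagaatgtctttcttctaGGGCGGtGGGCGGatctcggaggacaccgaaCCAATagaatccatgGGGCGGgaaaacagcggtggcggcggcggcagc
The *Igsf23* stretch is chr7:19950744-19950993 on the minus strand, the *Rnf225* stretch chr7:12927166-12927415 on the plus strand, the *C5ar2* stretch chr7:16244155-16244404 on the minus strand and the *Tomm40* stretch chr7:19715430-19715679 on the minus strand. The *Tomm40* promoter holds 5 CCAAT boxes, 3 GC boxes and 16 CpG sites. The *Rnf225* promoter holds 1 of each box, with 2 CpG sites, and its CCAAT box lies on the other strand within the last 5 bases. Neither the *Igsf23* nor the *C5ar2* promoter holds these letters, a TATA box (TATAAA) or an E-box (CACGTG) on either strand, and they carry 4 and 2 CpG sites. Among all 32851 RefSeq promoters of this length, 33.8% hold a CCAAT box, 32.7% a GC box, 12.4% a TATA box and 6.02% an E-box, and the median has 6 CpG sites. A match of letters is a description and no evidence of binding. Of the 10 genes, 9 had a promoter entry, and *Sae1* did not. Among the promoters not shown, that of *Bcam* holds none of the 4 kinds of box, with 22 CpG sites. That of *Dmpk* holds 1 CCAAT box and 1 CpG site, and that of *Ehd2* 1 CCAAT box, 1 GC box and 12 CpG sites. Those of *Ercc1* and *Clasrp* hold 1 GC box each, with 8 and 13 CpG sites.

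Before the genes themselves, the libraries were examined. Values are read counts per gene that the authors had scaled to totals of 32267493 to 32292618 per mouse, so these totals do not give the depth. The spacing of the low values put the depth at 5.6 to 52.2 M reads in 16 of 18 mice and left it unresolved in the other two. Group medians were 14.9 M reads in pair-fed WT, 23.9 in pair-fed KO, 39.5 in EtOH-fed WT (3 mice resolved) and 10.9 in EtOH-fed KO livers. *Apoe*, which encodes the lipoprotein ligand that was knocked out, ran from 611230 to 798431 in the 9 WT mice and from 8586 to 108651 in the 9 KO mice. It fell by 4.82 on the log2 scale in pair-fed KO mice (SE 0.53, limma adjusted p = 0.000502) and it fell by 4.21 in EtOH-fed KO mice (SE 0.38, limma adjusted p = 0.000142; −3.66 without KO mouse 1). The highest residual value, 108651, was in pair-fed KO mouse 4, where *Igsf23* (222), *Sae1* (2476), *Rnf225* (77) and *C5ar2* (36) lay within the range of the other 4 mice of the group. All 10 hepatocyte markers were listed, with summed values from 2873445 to 4863557 per mouse.

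One library stood apart from its label. All 18 mice are labelled female, although the study's methods name either sex, and EtOH-fed KO mouse 1 had 826 for *Xist* against 15227 to 30379 in the other 17 mice, and 1077 for the Y-linked *Ddx3y* against 2 to 118. For the 10 genes, the EtOH-fed genotype differences and the KO diet differences are also given without this mouse. No processing date or batch is named in the labels.

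Genotype differences in pair-fed mice were tested, because these 9 mice are not part of the contrast behind the choice of genes. The pair-fed values of *Igsf23* and *Sae1* were, however, already known. By limma with Benjamini-Hochberg adjustment over 15052 genes, *Igsf23*, *Sae1* and *Rnf225* were higher in pair-fed KO livers and none of the 10 genes was lower at an adjusted p below 0.05 (at an unadjusted p below 0.05, *Ehd2* and *C5ar2* were). These 3 of 10 stand beside 261 of all genes tested, or 1.73%. The count is a description and no independent support, since *Igsf23* and *Sae1* are among the 3. The values of KO and WT mice did not overlap for 4 of 10 genes in pair-fed mice, the same 3 and *C5ar2*, beside 7.03% of all genes. In EtOH-fed mice, where the choice was made, they did not overlap for 6 genes, beside 8.13% of all genes. The genotypes were apart in the same direction under both diets for 4 genes, *Igsf23*, *Sae1*, *Rnf225* and *C5ar2*, beside 97 of all genes, or 0.644%. Since that count includes the contrast behind the choice, only its pair-fed mice took no part in that contrast. Even there, the values of *Igsf23* and *Sae1* were already known. Without EtOH-fed KO mouse 1 the same 6 and the same 4 genes were apart, beside 12.9% and 0.864% of all genes.

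**Figure D1:**
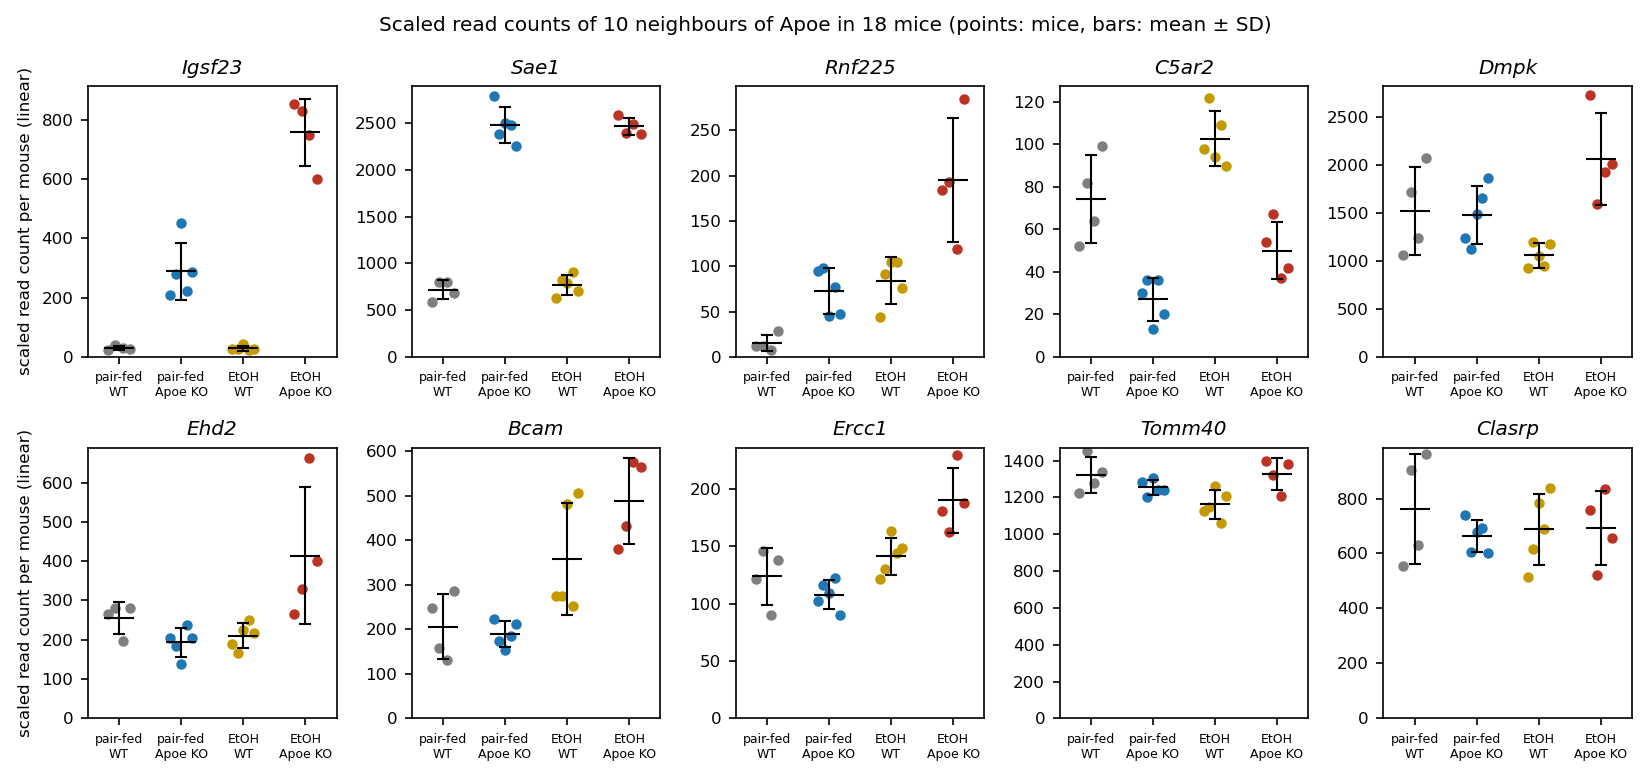
Scaled read count per mouse (linear axis, from 0) of the 10 genes in the 4 groups; points are mice and bars the mean ± SD. *Igsf23*, *Sae1*, *Rnf225* and *C5ar2* part KO from WT mice under both diets, *Dmpk* and *Ehd2* do so only in the EtOH-fed mice, and *Tomm40* and *Clasrp* overlap throughout.

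*Igsf23*, a gene of the immunoglobulin superfamily, was low in WT livers and high in KO livers. The 4 pair-fed WT mice had 23, 40, 30 and 27, and the 5 pair-fed KO mice 209, 278, 450, 222 and 285. The 5 EtOH-fed WT mice had 27, 25, 42, 24 and 25, and the 4 EtOH-fed KO mice 852, 828, 749 and 600. Every KO mouse lay above every WT mouse, and every EtOH-fed KO mouse lay above every pair-fed KO mouse, whereas the WT groups overlapped. In pair-fed mice the mean was 289 ± 96.1 (SD, n = 5) in KO and 30.0 ± 7.26 (SD, n = 4) in WT livers. The log2 difference was 3.20 (SE 0.26, limma adjusted p = 2.71e-05), or 9.17-fold. In EtOH-fed mice it was 4.70 (95% interval 4.22 to 5.17), and 4.64 without KO mouse 1.

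*Igsf23* thus lay apart between genotypes under both diets and higher with ethanol in KO mice. Between diets, the log2 difference was 1.43 in KO livers (95% interval 0.99 to 1.87), or 2.69-fold, and 1.37 without EtOH-fed KO mouse 1. In WT livers it was −0.07 (95% interval −0.79 to 0.65). The difference between these diet effects was 1.50 on the log2 scale (95% interval 0.80 to 2.20), and 1.44 without that mouse. The WT values rest on few reads, an estimated 4, 13, 27 and 16 in the 4 pair-fed mice.

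*Sae1* encodes a subunit of the SUMO-activating enzyme, which starts the attachment of the small modifier SUMO to proteins. Pair-fed WT mice had 588, 797, 798 and 688 and pair-fed KO mice 2787, 2388, 2500, 2476 and 2254. EtOH-fed WT mice had 631, 821, 786, 910 and 706 and EtOH-fed KO mice 2585, 2392, 2493 and 2388. The KO groups overlapped each other, the WT groups overlapped each other, and no KO value came near a WT value. The genotype difference was 1.80 on the log2 scale in pair-fed mice (SE 0.11, limma adjusted p = 2.28e-06), or 3.47-fold. It was 1.69 in EtOH-fed mice (SE 0.12), or 3.22-fold, and 1.66 without KO mouse 1. The diet difference was 0.10 in WT (95% interval −0.19 to 0.40) and −0.01 in KO livers (95% interval −0.19 to 0.18), −0.03 without EtOH-fed KO mouse 1. The interaction was −0.11 (95% interval −0.44 to 0.22), and −0.13 without that mouse. The genotype difference of *Sae1* was thus of nearly the same size under both diets.

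No other gene of the SUMO pathway passed the threshold between genotypes. Of 16 other listed SUMO genes, none was higher or lower between genotypes in pair-fed or EtOH-fed mice by limma with adjustment over all genes, and their median log2 difference was 0.05 and 0.07. At an unadjusted p below 0.05, 3 were higher in pair-fed and 1 in EtOH-fed KO livers. *Uba2*, the partner subunit of *Sae1* in the activating enzyme, had a log2 difference of 0.31 in EtOH-fed mice (SE 0.13, limma adjusted p = 0.222) and −0.02 in pair-fed mice (SE 0.10, limma adjusted p = 0.944).

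*Rnf225* differed by genotype and by diet. Pair-fed WT mice had 12, 12, 8 and 29 and pair-fed KO mice 95, 98, 45, 77 and 47. EtOH-fed WT mice had 44, 91, 105, 105 and 76 and EtOH-fed KO mice 184, 193, 119 and 285. Genotypes were apart under each diet and diets were apart within each genotype, with pair-fed KO and EtOH-fed WT mice overlapping in the middle. The log2 genotype difference was 2.25 in pair-fed mice (SE 0.42, limma adjusted p = 0.017) and 1.20 in EtOH-fed mice (95% interval 0.55 to 1.85), 1.21 without KO mouse 1.

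The pair-fed values of *Rnf225* rest on few reads, an estimated 2, 4, 7 and 17 in the 4 WT mice. The pair-fed call was lost without WT mouse 2 (log2 2.20, limma adjusted p = 0.0573), without KO mouse 1 (2.14, limma adjusted p = 0.0521) and without KO mouse 4 (2.21, limma adjusted p = 0.0505). Between diets, *Rnf225* was 5.57-fold higher with ethanol in WT livers (log2 2.48, 95% interval 1.62 to 3.33) and 2.69-fold higher in KO livers (log2 1.43, 95% interval 0.76 to 2.10; also 1.43 without EtOH-fed KO mouse 1). The interaction was −1.05 (95% interval −2.12 to 0.02), and −1.04 without that mouse.

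*C5ar2*, which encodes the second receptor for the complement fragment C5a, was the member that lay lower in KO mice. Pair-fed WT mice had 52, 82, 64 and 99 and pair-fed KO mice 30, 36, 13, 36 and 20. EtOH-fed WT mice had 98, 122, 94, 109 and 90 and EtOH-fed KO mice 54, 67, 37 and 42. KO and WT values were apart under each diet. In pair-fed mice the log2 difference was −1.48 (SE 0.37, 95% interval −2.27 to −0.69, limma adjusted p = 0.0555), which missed the threshold. It passed with all 4 groups in the fit (limma adjusted p = 0.0183), with a pseudocount of 10 (0.043) and with sample quality weights (0.0435), and ran up to 0.197 over the other alternatives. In EtOH-fed mice the log2 difference was −1.05 (95% interval −1.58 to −0.52), and −1.10 without KO mouse 1. Reads were few here too, from an estimated 8 to 38 in pair-fed KO mice. Between diets, the log2 difference was 0.49 in WT (95% interval 0.00 to 0.99) and 0.92 in KO livers (95% interval 0.09 to 1.76), 0.87 without EtOH-fed KO mouse 1. The interaction was 0.43 (95% interval −0.47 to 1.32), and 0.38 without that mouse.

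Of 9 other complement genes listed with *C5ar2*, none passed the threshold between pair-fed genotypes by limma, and at an unadjusted p below 0.05, 4 were higher and 2 lower in KO livers. *C5ar1*, the classical C5a receptor, had a log2 difference of −0.31 (SE 0.35, limma adjusted p = 0.658) in pair-fed mice, and it rose with ethanol in KO livers (log2 1.42, SE 0.32, limma adjusted p = 0.00604). *C3ar1*, the C3a receptor, was higher in KO than WT livers of EtOH-fed mice (log2 1.04, SE 0.21, limma adjusted p = 0.0151). Of the 9 genes, 3 rose and 1 fell with ethanol in KO livers, and 3 rose and 2 fell without EtOH-fed KO mouse 1. The median log2 difference of the 9 genes was −0.22, beside 0.13 over all genes. Of all genes 16.3% rose with ethanol in KO livers, a share to set beside the counts of this and the later lists.

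**Figure D2:**
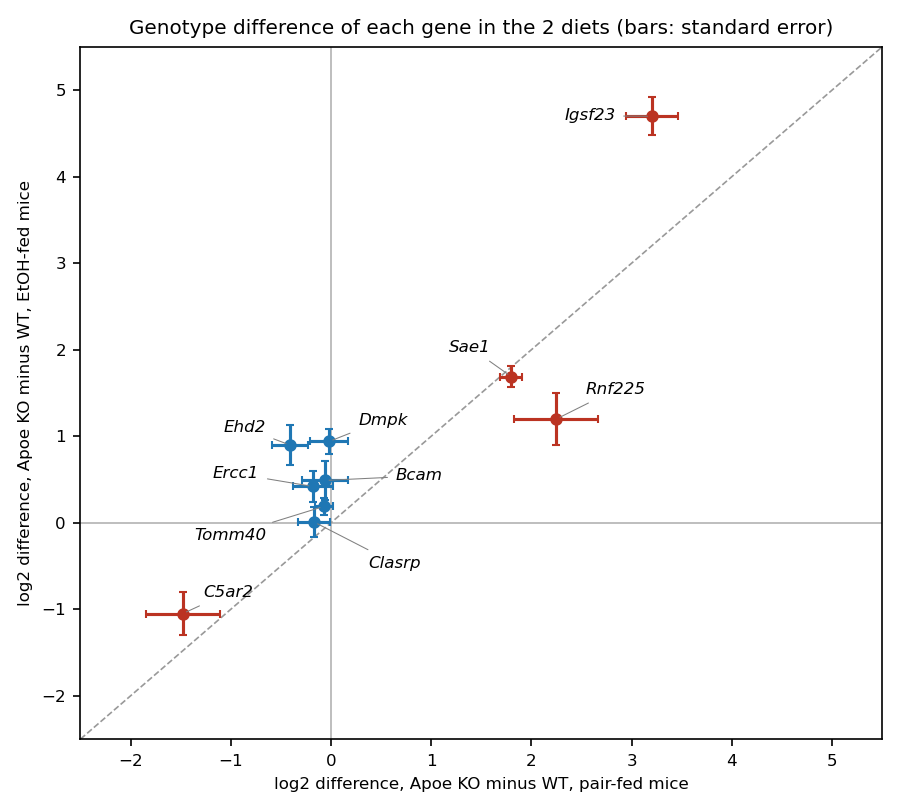
Log2 difference between KO and WT livers in pair-fed mice (x axis) and EtOH-fed mice (y axis) for each of the 10 genes; bars are standard errors, the dashed line marks equal differences, and red marks the 4 genes whose genotypes were apart under both diets. *Sae1* sits at 1.80 and 1.69, *Igsf23* above the line at 3.20 and 4.70, and the 6 genes in blue lie between −0.41 and −0.02 on the x axis.

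*Dmpk* and *Ehd2* parted the genotypes in EtOH-fed mice and not in pair-fed mice. *Dmpk* encodes the kinase whose gene carries the repeat expansion of myotonic dystrophy. Its values were 1060, 1716, 1238 and 2069 in pair-fed WT mice and 1236, 1125, 1483, 1656 and 1864 in pair-fed KO mice. They were 920, 1190, 1050, 942 and 1179 in EtOH-fed WT mice and 2728, 1590, 1924 and 2003 in EtOH-fed KO mice. Pair-fed genotypes overlapped, and the EtOH-fed genotypes were apart. The log2 genotype difference was −0.02 in pair-fed mice (SE 0.19, limma adjusted p = 0.961) and 0.94 in EtOH-fed mice (95% interval 0.62 to 1.27), falling to 0.80 without KO mouse 1, which was the highest of all 18. The diet differences ran in opposite directions, −0.48 in WT (95% interval −0.86 to −0.11) and 0.48 in KO livers (95% interval 0.12 to 0.84), the latter 0.34 without EtOH-fed KO mouse 1. The interaction was 0.97 (95% interval 0.42 to 1.51), and 0.82 without that mouse.

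Kupffer cell markers moved beside *Dmpk*. The summed value of 10 Kupffer cell markers was 7882 to 14094 in EtOH-fed WT mice and 18377 to 34304 in EtOH-fed KO mice. All 10 were higher in EtOH-fed KO than WT livers by limma with adjustment over all genes, 9 of 10 without KO mouse 1 and 9 of 10 with median-of-ratios scaling. Their median log2 difference was 1.34, beside 0.11 over all genes. In pair-fed mice none of the 10 passed the threshold (at an unadjusted p below 0.05, 1 higher and 1 lower), and the sums overlapped, from 12566 to 23219 in WT and from 11733 to 22742 in KO livers. In bulk tissue, fewer cells of a type and less RNA per cell cannot be told apart, and the part of these cells in the *Dmpk* values was not tested. Of the 10 other kinases and myotonic dystrophy genes listed with *Dmpk*, *Cdc42bpa* was higher in EtOH-fed KO than WT livers (log2 0.45, SE 0.11, limma adjusted p = 0.0375), and none was without KO mouse 1. *Dmpk* is best known from muscle, and of 10 muscle markers the 3 listed were *Des*, *Mylpf* and the smooth muscle gene *Myh11*, whereas *Acta1*, *Ckm*, *Myh4* and *Ttn* of skeletal muscle were not listed.

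*Ehd2* encodes an ATPase that holds caveolae at the plasma membrane. Pair-fed WT mice had 265, 280, 196 and 282 and pair-fed KO mice 205, 183, 138, 237 and 205. EtOH-fed WT mice had 190, 167, 226, 249 and 217 and EtOH-fed KO mice 265, 329, 663 and 400. The EtOH-fed genotypes were narrowly apart, with the lowest KO mouse at 265 and the highest WT mouse at 249, and pair-fed genotypes overlapped. The log2 genotype difference was −0.41 in pair-fed mice (SE 0.18, limma adjusted p = 0.238) and 0.90 in EtOH-fed mice (95% interval 0.40 to 1.41), 1.09 without KO mouse 1. Between diets, *Ehd2* was 2.04-fold higher with ethanol in KO livers (log2 1.03, 95% interval 0.51 to 1.55; 1.21 without EtOH-fed KO mouse 1), whereas the difference in WT livers was −0.28 (95% interval −0.65 to 0.09). The interaction was 1.31 (95% interval 0.67 to 1.95), and 1.50 without that mouse.

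Most of the other caveolar genes and *Ehd2* paralogues rose with ethanol in KO livers. Of 10 such genes besides *Ehd2*, 7 were higher in EtOH-fed than pair-fed KO livers and none lower, and 8 were higher without EtOH-fed KO mouse 1. In WT livers 2 were higher. Between EtOH-fed genotypes, *Ehd4* was higher in KO livers (log2 0.84, SE 0.19, limma adjusted p = 0.0229), and 4 of the 10 were without KO mouse 1. The list's median log2 difference in KO livers was 0.65, beside 0.13 over all genes. *Ehd3* rose by a log2 difference of 1.19 (SE 0.15, limma adjusted p = 0.00016) and *Cavin1*, a caveolar coat gene, by 1.35 (SE 0.26, limma adjusted p = 0.00255). Of 10 hepatic stellate cell markers, 8 rose with ethanol in KO livers, 5 without EtOH-fed KO mouse 1 and 6 with median-of-ratios scaling. In WT livers none of the 10 passed the threshold between diets. Between EtOH-fed genotypes, 2 of the 10 were higher in KO livers, and the list's median log2 difference was 0.27, beside 0.11 over all genes. The summed value of the 10 markers was 15773 to 20201 in pair-fed KO and 23176 to 40680 in EtOH-fed KO mice. Their part in the *Ehd2* values was not tested.

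*Bcam* and *Ercc1* did not part the genotypes under either diet, and both parted the diets in KO livers. *Bcam* encodes an adhesion receptor for laminin. It had 248, 158, 132 and 287 in pair-fed WT mice and 224, 173, 154, 186 and 213 in pair-fed KO mice. It had 275, 274, 482, 252 and 507 in EtOH-fed WT mice and 381, 432, 577 and 565 in EtOH-fed KO mice. Genotypes overlapped under both diets, and diets were apart in KO but not in WT livers. *Bcam* was 2.55-fold higher with ethanol in KO livers (log2 1.35, 95% interval 0.98 to 1.72; 1.46 without EtOH-fed KO mouse 1). In WT livers the log2 difference was 0.80 (95% interval 0.21 to 1.39). The diet effects differed by 0.55 (95% interval −0.16 to 1.27), an interval that includes 0, and by 0.67 without that mouse. The log2 genotype difference was −0.06 in pair-fed mice (SE 0.23, limma adjusted p = 0.904) and 0.49 in EtOH-fed mice (95% interval 0.00 to 0.99), 0.61 without KO mouse 1.

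Laminin and adhesion genes moved beside *Bcam* in KO livers, and endothelial markers in both genotypes. Of 13 other laminin and adhesion genes, 7 rose and 1 fell with ethanol in KO livers, and 7 rose and none fell without EtOH-fed KO mouse 1. The alpha-5 laminin gene *Lama5*, a known partner of this receptor, rose by 1.19 (SE 0.18, limma adjusted p = 0.000471) and was lower in pair-fed KO than WT livers (log2 −0.94, SE 0.20, limma adjusted p = 0.0288). In WT livers none of the 13 passed the threshold between diets (at an unadjusted p below 0.05, 1 higher and 2 lower), and their median log2 difference was −0.24. In EtOH-fed mice 3 of 13 were higher in KO livers, and 1 of 13 with median-of-ratios scaling. Of 10 sinusoidal endothelial markers, 9 rose with ethanol in KO and 6 in WT livers, and the KO count was 9 without EtOH-fed KO mouse 1 as well. Between pair-fed genotypes, *Clec4g* (log2 −0.66, SE 0.11, limma adjusted p = 0.00998) and *Fcgr2b* (−0.63, SE 0.14, limma adjusted p = 0.0318) were lower in KO livers, 8 of 10 were at an unadjusted p below 0.05, and the list's median was −0.46. Their summed value was 6627 to 9551 in pair-fed KO and 11498 to 18130 in EtOH-fed KO mice, and 9986 to 11381 and 12265 to 17677 in the WT groups. The part of endothelial cells in the *Bcam* values was not tested.

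*Ercc1* encodes a subunit of the endonuclease that cuts damaged DNA in nucleotide excision repair. It had 121, 146, 90 and 138 in pair-fed WT, and 102, 116, 109, 122 and 90 in pair-fed KO mice. It had 121, 130, 163, 144 and 148 in EtOH-fed WT, and 181, 162, 229 and 188 in EtOH-fed KO mice. The EtOH-fed genotypes overlapped narrowly, with the lowest KO mouse at 162 and the highest WT mouse at 163, and diets were apart in KO livers. *Ercc1* was 1.75-fold higher with ethanol in KO livers (log2 0.81, 95% interval 0.41 to 1.21; 0.83 without EtOH-fed KO mouse 1), and the WT difference was 0.20 (95% interval −0.21 to 0.62). The interaction was 0.60 (95% interval 0.08 to 1.13), and 0.62 without that mouse. Its log2 genotype difference was −0.18 in pair-fed (SE 0.20, limma adjusted p = 0.651) and 0.42 in EtOH-fed mice (95% interval 0.04 to 0.81), 0.44 without KO mouse 1. Of 16 other repair genes, none differed by genotype under either diet (at an unadjusted p below 0.05, 2 higher and 2 lower in pair-fed, 0 in EtOH-fed mice). In KO livers 2 of the 16 rose with ethanol, beside 16.3% of all genes. Those 2 were *Rad23b* (log2 0.33, SE 0.09, limma adjusted p = 0.0166) and *Ercc6* (0.43, SE 0.14, limma adjusted p = 0.0415), and with median-of-ratios scaling none passed. *Ercc4*, the other subunit of the endonuclease, had 0.19 (SE 0.18, limma adjusted p = 0.479).

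*Tomm40* and *Clasrp*, which are among the nearest of the 10 genes to *Apoe*, did not pass the threshold between pair-fed genotypes. *Tomm40* forms the channel through which proteins enter mitochondria. It ran from 1227 to 1452 in pair-fed WT, from 1205 to 1305 in pair-fed KO, from 1060 to 1265 in EtOH-fed WT and from 1208 to 1400 in EtOH-fed KO mice. The 4 group means were 1324 ± 97.2, 1255 ± 39.8, 1162 ± 78.3 and 1327 ± 86.3 (SD, n = 4, 5, 5 and 4). The pair-fed genotype difference was −0.07 (95% interval −0.26 to 0.11, limma adjusted p = 0.668), and the EtOH-fed one 0.19 (95% interval −0.03 to 0.41), or 0.17 without KO mouse 1. The diet difference was −0.19 in WT (95% interval −0.40 to 0.03) and 0.08 in KO livers (95% interval −0.11 to 0.27), 0.05 without that mouse. With median-of-ratios scaling the EtOH-fed one was 0.06. The pair-fed interval leaves no room for a difference of the size seen in *Sae1*, which lies 3.34 Mb away at lower coordinates. *Tomm40l*, its paralogue on another chromosome, fell with ethanol in KO (log2 −1.32, SE 0.17, limma adjusted p = 0.000172) and in WT livers (−0.86, SE 0.20, limma adjusted p = 0.0152). Of 10 other genes of this translocase, 2 rose and 2 fell in KO livers, and none differed by genotype under either diet (at an unadjusted p below 0.05, 1 higher and 2 lower in pair-fed, 1 and 1 in EtOH-fed mice). With median-of-ratios scaling 1 was lower in EtOH-fed KO livers.

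*Clasrp* encodes a serine and arginine rich protein that binds a kinase of splicing factors. It ran from 553 to 962 in pair-fed WT, from 602 to 739 in pair-fed KO, from 513 to 839 in EtOH-fed WT and from 523 to 835 in EtOH-fed KO mice, so that all 4 groups overlapped. The log2 genotype difference was −0.17 in pair-fed mice (95% interval −0.50 to 0.17, limma adjusted p = 0.585) and 0.01 in EtOH-fed mice (95% interval −0.36 to 0.38), −0.04 without KO mouse 1. The diet difference was −0.13 in WT (95% interval −0.53 to 0.27) and 0.05 in KO livers (95% interval −0.25 to 0.35), 0.00 without that mouse. Of 16 other kinases and SR proteins, none differed by genotype under either diet by limma with adjustment over all genes, and at an unadjusted p below 0.05 2 were lower in pair-fed and 1 higher in EtOH-fed KO livers.

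Counted over the whole table by limma at an adjusted p below 0.05, 1 of the 10 genes was higher with ethanol in WT livers, *Rnf225*, beside 6.19% of all genes tested. In KO livers 5 of 10 were higher, *Igsf23*, *Rnf225*, *Ehd2*, *Bcam* and *Ercc1*, beside 16.3% of all genes, and the same 5 were without EtOH-fed KO mouse 1 and with median-of-ratios scaling. None of the 10 was lower in either genotype (at an unadjusted p below 0.05, 1 was in WT and 0 in KO livers). Because the genes were chosen in the same EtOH-fed mice, these counts describe the 10 genes and support nothing. Genes as a whole leaned upwards in KO livers under the authors' scaling, with a median log2 difference of 0.126, and 2446 genes rose and 1042 fell. With median-of-ratios scaling 1656 rose and 1607 fell. In the EtOH-fed genotype contrast, 639 genes were higher and 67 lower (4.69% of all), or 380 and 126 with median-of-ratios scaling, and the median of all genes was 0.107.

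**Figure D3:**
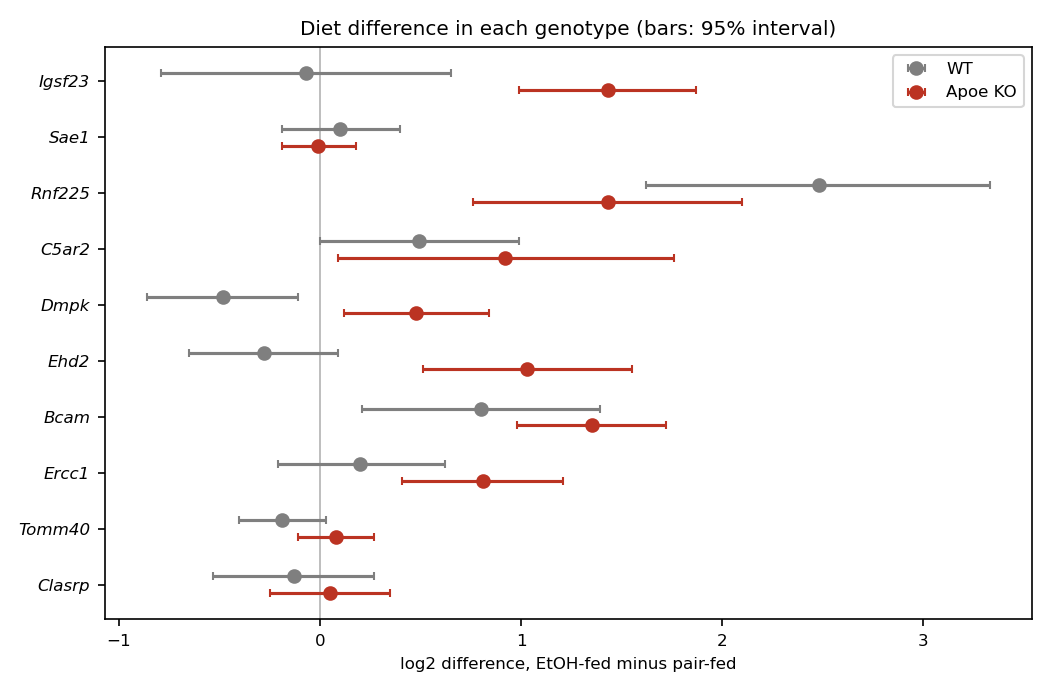
Log2 difference between EtOH-fed and pair-fed livers in WT (grey) and KO mice (red) for each of the 10 genes. Bars are 95% intervals per gene, without adjustment over all genes. *Rnf225* and *Bcam* lie above 0 in both genotypes, *Igsf23*, *Ehd2*, *Ercc1* and *C5ar2* clear 0 in KO livers alone, *Dmpk* lies below 0 in WT and above 0 in KO livers, and *Sae1*, *Tomm40* and *Clasrp* straddle 0 in both.

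Set beside the whole neighbourhood, the 10 genes were not the only ones to differ in pair-fed mice. Of the 163 listed genes within 7 Mb of *Apoe*, itself left out, 18 differed between pair-fed genotypes, or 11.0%, and 15 of them were not among the 10 genes. Without the 10 genes, 5 were higher and 10 lower of 153, or 9.80%. The share was 10.4% of 48 genes within 1 Mb, 16.7% of 12 genes from 1 to 3 Mb, 10.7% of 103 genes from 3 to 7 Mb, 4.62% of 238 genes from 7 to 20 Mb and 1.55% of 772 genes farther along chromosome 7. On the other chromosomes it was 1.58% of 13866 genes.

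Genes whose genotypes were apart in the same direction under both diets were also more frequent near *Apoe*. They made up 8.33% within 1 Mb, 8.33% from 1 to 3 Mb, 9.71% from 3 to 7 Mb and 2.94% from 7 to 20 Mb, but 0% of the 772 genes farther along the chromosome and 0.534% of the genes elsewhere. These shares are descriptions, since the region holds Cyp2 and Sult2a gene families whose copies can share reads, and the bin from 1 to 3 Mb rests on 2 of 12 genes in pair-fed mice. Without the 10 genes the share within 7 Mb was 7.19%.

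**Figure D4:**
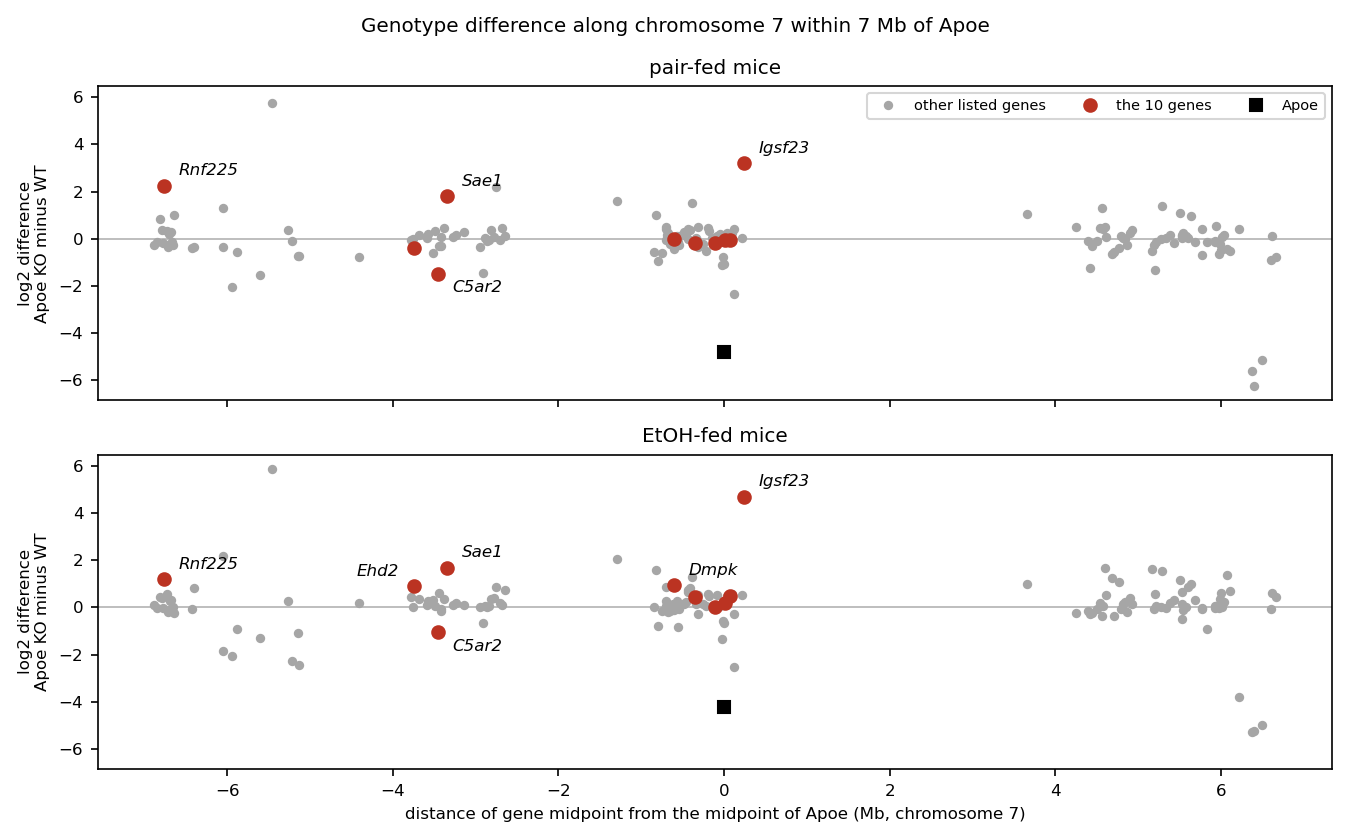
Log2 difference between KO and WT livers (y axis) by distance of each listed gene from *Apoe* in Mb (x axis), in pair-fed mice (top) and EtOH-fed mice (bottom); red marks the 10 genes, grey the other listed genes and the black square *Apoe*. Genes with large differences in both directions lie among genes near 0, and *Dmpk* and *Ehd2* lie at −0.02 and −0.41 in the top and at 0.94 and 0.90 in the bottom panel.

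Distance did not order the sizes among the 10 genes. *Sae1* at −3.34 Mb and *C5ar2* at −3.46 Mb lay apart in opposite directions, and *Ehd2* at −3.74 Mb did not part the pair-fed genotypes. *Tomm40* and *Bcam* lie between *Apoe* and *Igsf23*, and neither parted the genotypes. Next to *Apoe* on its other side, 3 genes outside the 10 were lower in pair-fed KO livers. They were *Apoc1* (log2 −1.07, limma adjusted p = 0.0233), *Apoc4* (−0.80, limma adjusted p = 0.0258) and *Apoc2* (−1.10, limma adjusted p = 0.033). Of these, only *Apoc2* parted the genotypes under both diets. The largest differences among the other neighbours in pair-fed mice were in *Gm29920* (log2 −6.25, limma adjusted p = 0.00079), *Sult2a6* (5.76, limma adjusted p = 0.000526), *Cyp2b13* (−5.63, limma adjusted p = 0.000189), *Cyp2b9* (−5.17, limma adjusted p = 0.000216) and *Gm16174* (−2.34, limma adjusted p = 0.01). Near the edge of the region, *Zfp110* and *Zfp329* just inside 7 Mb had pair-fed differences of −0.14 and −0.25, and *Cyp2g1* and *Cyp2a5* just outside −0.68 and 0.92.

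Likeness across the 18 mice was described by Pearson's r of log2 values over all genes. All 18 mice entered, EtOH-fed KO mouse 1 included. The mice share group and depth, and no p is given. Among them are the EtOH-fed mice whose genotype comparison chose the genes described here. A gene chosen for a genotype difference can resemble other genes that differ by genotype for that reason alone. The counts of like genes near *Apoe* are therefore description only and no independent support. *Igsf23* was most like *Sae1* (r = 0.946), then *Ppp1r14a* (0.909) and *Dedd2* (0.901), all on chromosome 7, and *Sae1* was most like *Igsf23*, then *Tmem176a* (0.917) and *Dedd2* (0.907). Of the 20 genes most like *Igsf23*, 9 lay within 20 Mb of *Apoe*, as did 7 of those most like *Sae1* and 6 of those most like *C5ar2*. Within 7 Mb the counts were 5, 4 and 5. Among all 15052 genes, 401 lie within 20 Mb and 163 within 7 Mb, *Apoe* left out. *C5ar2* was most like *Cyp2b13* (0.849), *Sympk* (0.847) and *Xkr6* (0.833).

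*Dmpk* and *Ehd2*, which parted the genotypes in EtOH-fed mice alone, were most like genes of other chromosomes, and the remaining members follow them here. *Dmpk* was most like *Themis2* (0.938), *C1qa* (0.93) and *C1qc* (0.911), the last a pair of complement genes of macrophages. *Ehd2* was most like *Anxa2* (0.967), *Vim* (0.952) and *Kirrel1* (0.952). *Bcam* was most like the endothelial gene *Vwf* (0.942), *Fabp4* (0.938) and *Ice1* (0.937). *Rnf225*, although it parted the genotypes under both diets, was most like *Zfp775* (0.883), *Slc6a8* (0.883) and *Mafk* (0.879), and none of its 20 most similar genes lay within 20 Mb of *Apoe*. *Ercc1* was most like *Csnk1e* and *Ppic* (both 0.924) and *Clcf1* (0.91). *Tomm40* was most like *Gm49172* (0.872), *Hsd17b10* (0.837) and *Adck5* (0.836), and *Clasrp* was most like *Iffo1* (0.854), *Zfp182* (0.842) and *Gigyf1* (0.831).

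Some values could include reads of overlapping genes. On the other strand, *Ercc1* shares 511 bases with *Cd3eap*, *Tomm40* 423 bases with *Gm20512* and *Bcam* 406 bases with *Gm26600*, and it is not stated whether the counting used strand. On the same strand, *Bcam* shares 1349 bases with *Gm45114*, *Clasrp* 5002 bases with *Gm26890* and *Igsf23* 372 bases with *Gm44651*. Neutrophil and cholangiocyte markers were read as well. Of 10 neutrophil markers 3 were listed and none passed the threshold in any comparison (at an unadjusted p below 0.05, 1 was lower in EtOH-fed than pair-fed WT livers), and *Ly6g*, *Mpo* and *Elane* were not listed. Of 8 listed cholangiocyte markers, *Krt19* alone passed the threshold between EtOH-fed genotypes, higher in KO livers (log2 2.05, SE 0.53, limma adjusted p = 0.0445). At an unadjusted p below 0.05, 2 of the 8 were higher and 1 lower there, and none passed with median-of-ratios scaling. With ethanol, 1 of the 8 rose and 2 fell in WT livers, and 1 rose and 0 fell in KO livers.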

How the data were processed

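Liver RNA of 18 mice was sequenced after polyA selection. Per the methods and the submitters' processing notes, the authors used TRIzol, Trimmomatic, HISAT2 (GRCm38) and featureCounts; versions are not given in the sources used here. The authors deposited 1 table, in which the signal per mouse is a rounded read count per gene after a scaling, not described, that made the totals of all mice nearly equal. It also holds the authors' mean signal, log2 fold changes, p-values, ranking scores and a number of expressing mice, none of which was used. Its smallest mean was 12.1, and 195 repeated lines left 15052 genes, 15040 of them placed in GENCODE M21 (12 were not).

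A test of counts had been planned for counts; since the values are scaled, limma (version 3.58.1, R 4.3.3) was run with an intensity trend on log2(value + 1), only the mice compared entering each fit, all 18 for the interaction, with Benjamini-Hochberg adjustment over 15052 genes and a threshold of 0.05. Folds are on this log2(value + 1) scale and understate changes of low genes. Tests on simulated data preceded the real fits. Depth was estimated from the spacing of low values, with a lead of over 10 in log-likelihood required of a spacing, and intervals of reads cover counting only. Python 3.11.15, numpy 2.4.6, pandas 2.3.3 and matplotlib 3.10.9 were used.

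For the 10 genes, p-values are given for pair-fed genotypes only, since the other comparisons share mice with their choice. Their counts past the threshold between diets are description only. The 10 genes and all lists were chosen with earlier results of these data known. Named besides the members are *Apoe*, per member the 3 genes most like it, per list at most 4 genes of lowest p in the comparison described, and at most 5 non-member neighbours with the largest called pair-fed difference; *Uba2*, *C5ar1*, *Ercc4*, *Lama5* and *Tomm40l* in further comparisons, *Xist* and *Ddx3y*, and genes at the 7 Mb edge were added by their role or place. *Apoc1*, *Apoc4* and *Apoc2* were likewise added by their place next to *Apoe*. Each mouse is 1 replicate by its label, and whether cages were shared is not stated. Alternatives were median-of-ratios size factors, pseudocounts of 0.1 and 10, a mean of at least 50, all 4 groups in each fit, sample quality weights, a block on mouse number, 20 Mb in place of 7 Mb, and leaving out each mouse.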

Additional observations from a re-analysis of the deposited data

Results flagged for a closer look

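In 2 of 44 groups of 4 or 5 mice, formed by the 10 genes and *Apoe* in each of the 4 groups, a mouse stood far from the others on the log2 scale, where chance gives about 2.2 by Dixon's rule. *Igsf23* in EtOH-fed WT mice had a highest mouse at 42 against 24 to 27 in the other 4, a gap of 0.791 of the whole range. *Apoe* in EtOH-fed KO mice had a lowest mouse at 12041 against 48574 to 61572 in the other 3, a gap of 0.855 of the range, and that mouse is KO mouse 1, whose *Xist* level goes against its label.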

How the results depend on the processing

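Of 160 pair-fed genotype values of the 10 genes under the alternatives, 146 kept direction and side of the threshold, 3 passed it anew (all *C5ar2*), 3 lost it (all *Rnf225*) and 8 changed sign (*Dmpk* and *Bcam*, neither called). Of 400 EtOH-fed genotype and interaction values, which have no test, 397 moved by less than the spread between mice and 3 by more. Of 320 diet values, 9 changed sign. With median-of-ratios scaling, *Tomm40* and *Clasrp* in the KO diet comparison became −0.05 and −0.08. With quality weights, *Bcam* in pair-fed mice and *Sae1* in the KO diet comparison became 0.00.

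With each mouse left out, the pair-fed genotype difference ran from −0.18 to 0.14 for *Dmpk* and from −0.25 to 0.12 for *Bcam*. The diet difference ran from −0.21 to 0.07 for *Igsf23* and −0.06 to 0.03 for *Apoe* in WT, and from −0.04 to 0.04 for *Sae1* and −0.05 to 0.18 for *Clasrp* in KO livers. Members called numbered 2 to 3 in pair-fed mice, 1 to 2 in the WT and 5 to 6 in the KO diet comparison. *Dmpk* joined in WT without pair-fed WT mouse 1 (−0.64) and in KO without pair-fed KO mouse 5 (0.57) or EtOH-fed KO mouse 2 (0.60). In the WT diet comparison 2 members were called with all 4 groups, adding *Bcam*, and 2 with quality weights, adding *Dmpk*.

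Counts over all genes moved more. Leaving out mice gave 35 to 362 higher and 38 to 308 lower genes in pair-fed mice (131 and 130 with all), 289 to 565 and 38 to 58 in EtOH-fed mice (639 and 67), 591 to 871 and 595 to 1033 for WT diet (931 and 981), 1805 to 2406 and 806 to 1021 for KO diet, and 157 to 506 and 10 to 55 for the interaction (392 and 36). The lowest pair-fed counts were without WT mouse 2. Median-of-ratios scaling gave 380 higher and 126 lower genes in EtOH-fed mice, 1607 lower for KO diet and 84 lower for the interaction; quality weights gave 272 higher in pair-fed mice and 62 lower for the interaction; all 4 groups gave 108 lower in EtOH-fed mice. Within 20 Mb of *Apoe*, 7.23% of genes were called in pair-fed mice, in place of 11.0% within 7 Mb.

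In none of the comparisons did every pair of same-numbered mice correlate above 0.1, so the numbers were not taken to pair mice, although 3 of 4 pairs did in EtOH-fed genotypes (0.188, 0.23, 0.144 and −0.0242). With mouse number as a block, the pairing left the members called unchanged (*Rnf225* in pair-fed mice 2.39, limma adjusted p = 0.0175). The block gave 186 higher and 203 lower genes in pair-fed mice, and 586 higher for WT diet. In EtOH-fed genotypes it gave 923 higher and 121 lower genes, against 639 and 67 without it. DESeq2 and edgeR were not run, because the values are not counts. The causes of these changes were not tested. Depth limits *Rnf225*, *Igsf23* and *C5ar2*, with an estimated 2 to 17, 4 to 27 and 9 to 59 reads per mouse in pair-fed WT livers.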
